A study of Mus musculus with 6 samples.

Results

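Interleukins are secreted proteins by which leukocytes and epithelial cells signal to each other. Each binds a receptor built from 2 or more chains, of which at least one is usually private to that interleukin and another is shared. The chain encoded by Il2rg (common gamma chain) serves the receptors of IL-2, IL-4, IL-7, IL-9, IL-15 and IL-21, that encoded by Il6st (gp130) serves those of IL-6, IL-11 and IL-27, and IL-1 family cytokines use a group of related receptors of their own. In the lacrimal gland, the main source of the watery part of tears, the epithelium can make some of these cytokines, while most receptor chains of the common gamma group belong to lymphocytes.

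The genes described here are the interleukins and their receptors in the lacrimal glands of ICR mice, an outbred stock that served as control (3 libraries), and of NOD/Ltj mice, an inbred strain with spontaneous autoimmune inflammation of the tear and salivary glands that serves to model Sjögren's syndrome (3 libraries). The labels name no treatment, age, sex or pooling, and the strains differ throughout the genome, so the difference in disease and all other strain differences cannot be told apart. Nothing in the labels says that each library came from a separate animal, and p-values therefore measure only the spread between these libraries, which may be technical. Polyadenylated RNA was sequenced, and the libraries held 58426580 to 76554340 estimated counts. The members were all genes whose symbol starts with Il and a digit, whose counts summed over the 6 libraries exceeded 0 and which are no pseudogenes. Of 83 genes with such a symbol, 69 were members, out of 55401 genes in all, and 14 were at 0 in every library. None was a pseudogene. The members were chosen on the summed count, which does not use the difference between the strains, but this set was chosen with earlier results of these data known. By role there were 25 cytokines, 39 receptor chains, 3 antagonists or binding proteins and 2 others (Il4i1, an enzyme that degrades amino acids, and Il1bos, an antisense RNA of Il1b). The summed count of members just inside the rule was 1 for Il17c and 2 for Il24. The 14 at 0 included Il3, Il9, Il13, Il17f, Il19, Il20, Il22, Il31 and Il22ra1.

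Levels are CPM, counts scaled to a common library total, with library sizes adjusted by TMM, which corrects for differences in composition. Low genes are also given as counts, of which about 4 were taken to stand for 1 sequenced fragment. A count of 0 allows up to 3 fragments, or 12 counts, at 95% confidence, which is 0.149 to 0.222 CPM by library and covers counting error only. Differences were tested with edgeR on all 18537 genes that passed its filter on low counts, and a gene is said to have risen or fallen at an adjusted p under 0.05. Of the 69 members 50 passed the filter, namely 32 receptors, 15 cytokines, 2 antagonists and Il1bos. Il12b, Il21 and Il5ra passed only through the NOD/Ltj libraries, with no ICR library above the floor of 12 counts. The filter asks for 3 libraries above a low level. Il9r, Il12rb1 and Il10 had fewer than that in ICR and also needed NOD/Ltj libraries to pass.

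Single libraries stood apart in tissue that surrounds the secretory cells. The summed CPM of 5 fibroblast markers was 2760 in ICR 1 and 410 to 626 in the other 5 libraries, and that of 5 adipocyte markers was 59.8 in ICR 1 and 4.46 to 27.4 elsewhere. ICR 3 held 13800 CPM of 5 salivary gland markers (53.4 to 2470 elsewhere) and 104 CPM of 6 skeletal muscle markers (0.621 to 4.45 elsewhere). Of the salivary list, Muc19 was at 0 in all ICR libraries. The 4 acinar markers, which mark secretory cells, summed to 8060 to 12300 CPM, so secretory cells were present in every library. How much of this sum came from lacrimal and how much from salivary tissue was not tested.

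The members that rose were all receptor chains. Of 39 receptor genes 9 were higher in NOD/Ltj and none was lower, while 1.88% of all genes tested were higher and 0.361% lower. They were Il2rg, Il2rb, Il4ra, Il7r, Il9r and Il21r of the common gamma group, Il10ra, Il27ra and Il18r1. None of the 25 cytokine genes was called by edgeR, and at an unadjusted p under 0.05 Il16, Il12b and Il21 were higher and none was lower (8.00% and 5.05% of all genes tested). Il12b and Il21 are among the genes that passed the filter only through NOD/Ltj, so their direction was fixed by the filter. The median log2 fold change of the tested members was 0.42, against -0.03 over all genes tested. It was 0.66 for the 32 receptors and -0.27 for the 15 cytokines. These medians include Il12b, Il21 and Il5ra, which passed only through NOD/Ltj, and Il9r, Il12rb1 and Il10, which also needed NOD/Ltj libraries to pass. In 19 of the 50 tested members the 3 libraries of one strain lay apart from the 3 of the other, while this held for 20.0% of all genes tested.

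**Figure D1:**
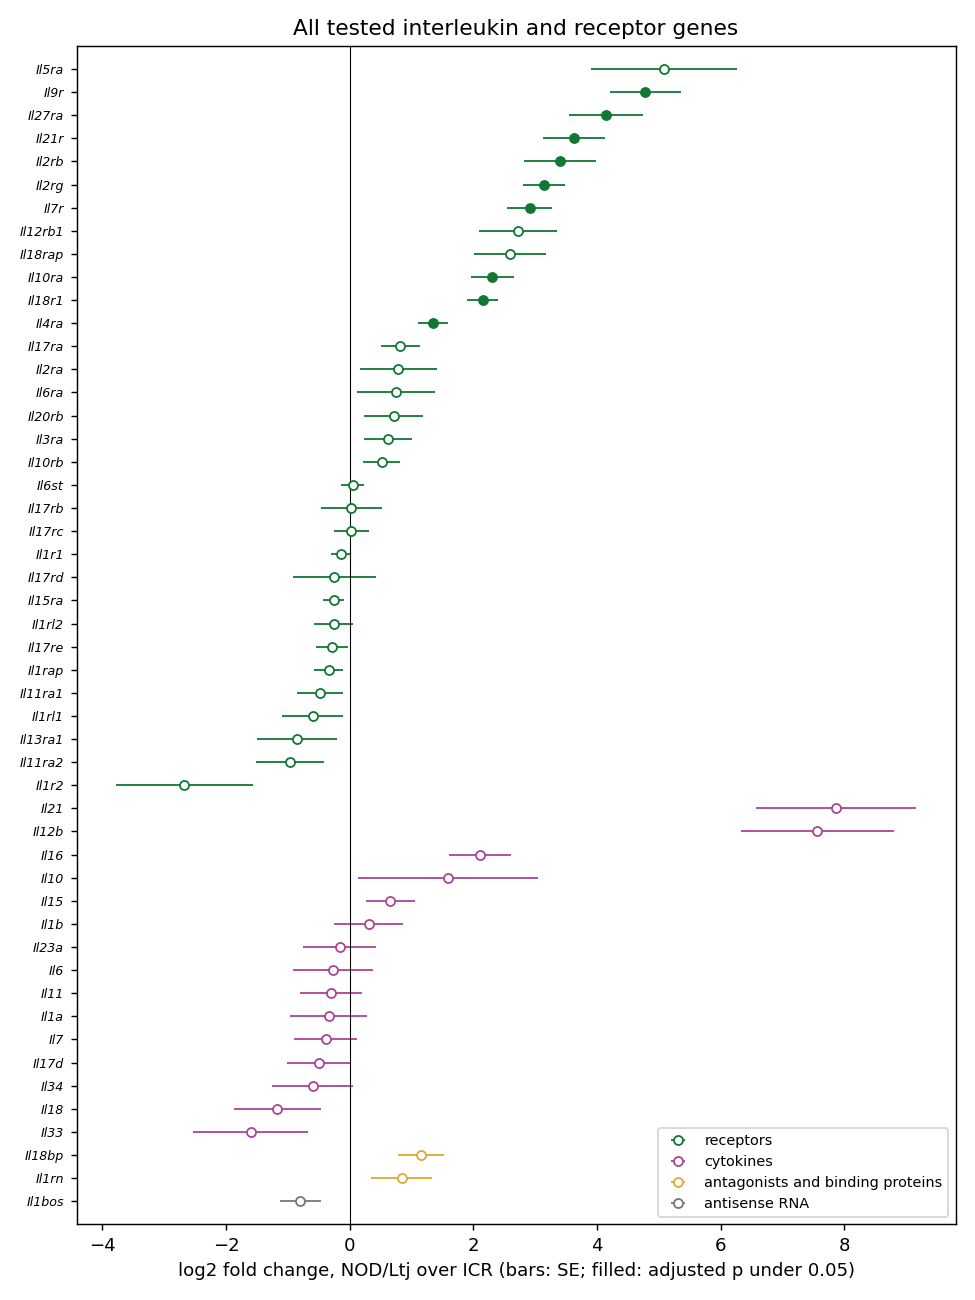
Log2 fold change of NOD/Ltj over ICR for the 50 interleukin and receptor genes tested, with standard errors as bars, grouped by role and sorted within each role; filled points have an edgeR adjusted p under 0.05. All 9 filled points are receptor chains on the right of 0. The points of Il21 and Il12b rest on 0 counts in every ICR library, so their positions depend on the prior count and are no estimate of the fold.

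Il2rg, the common gamma chain, stood at 1.83, 2.28 and 1.52 CPM in ICR 1, 2 and 3 and at 11, 23.9 and 14.8 CPM in NOD/Ltj 1, 2 and 3. Every NOD/Ltj library was above every ICR library, and the level was highest in NOD/Ltj 2. The mean went from 1.88 ± 0.380 to 16.6 ± 6.62 CPM (SD, n = 3 each), a log2 fold change of 3.14 ± 0.34 (SE, edgeR adjusted p = 0.0108). Per kilobase of exon Il2rg stood at 0.787 CPM in ICR, and at 6.95 CPM in NOD/Ltj, the highest mean of the 39 receptors there. It shares exon sequence on the same strand with Gm20489, which held 24 counts in NOD/Ltj 1, 6 in ICR 1 and 0 elsewhere.

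The private chains that pair with Il2rg differed among themselves. Il9r, the IL-9 receptor, had 14, 16 and 4 counts in ICR against 163, 390 and 458 in NOD/Ltj (0.177 ± 0.0968 and 4.94 ± 1.96 CPM, SD, n = 3 each). This was the largest log2 fold change among the members called, 4.78 ± 0.57 (SE, edgeR adjusted p = 0.0108). Il9r needed NOD/Ltj libraries to pass the filter, so its call is not independent of the filter. With no filter on low counts it was also called (edgeR adjusted p = 0.00919). Il9r was at 0.0358 CPM per kilobase in ICR, the lowest ICR level of the 9. Il21r, the receptor of the helper T cell cytokine IL-21 on B cells, stood at 1.08, 0.436 and 0.857 CPM in ICR and at 4.89, 13.4 and 11.3 CPM in NOD/Ltj. The groups did not overlap, and NOD/Ltj 1 was below NOD/Ltj 2 and 3. The log2 fold change was 3.63 ± 0.50 (SE, edgeR adjusted p = 0.016).

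Il7r, the IL-7 receptor on which naive and memory T cells depend for survival, stood at 1.31, 1.36 and 1.89 CPM in ICR and at 6.87, 16 and 11.5 CPM in NOD/Ltj, a 7.53-fold rise (edgeR adjusted p = 0.0118). Il2rb, the signalling chain that IL-2 and IL-15 share, stood at 0.477, 0.436 and 0.926 CPM in ICR and at 2.41, 8.79 and 8.23 CPM in NOD/Ltj. Its rise was 10.6-fold (edgeR adjusted p = 0.0315). Again no NOD/Ltj library reached down to the ICR range in either gene.

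Il4ra, the binding chain for IL-4 and, with Il13ra1, for IL-13, had the highest ICR level per length of these 9 genes, 1.43 CPM per kilobase, and the smallest rise. It stood at 8.70, 7.5 and 9.60 CPM in ICR and at 15.9, 27.6 and 22.2 CPM in NOD/Ltj, a log2 fold change of 1.35 ± 0.24 (SE, edgeR adjusted p = 0.0339). Il4ra and Il21r are next to each other among the coding genes of chromosome 7 in the RefSeq annotation. Both rose, Il21r by 12.4-fold and Il4ra by 2.55-fold, and the difference between the 2 genes was not tested.

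The chains that complete the IL-2 and IL-15 receptors did not pass. Il2ra, which raises the affinity for IL-2 and marks regulatory and activated T cells, stood at 2.35, 0.372 and 1.01 CPM in ICR and at 1.83, 2.98 and 1.68 CPM in NOD/Ltj. The groups overlapped through ICR 1 (log2 fold change 0.79 ± 0.63 SE, edgeR adjusted p = 0.696), and without ICR 1 the log2 fold change was 1.64 (edgeR adjusted p = 0.185). Il15ra, which presents IL-15 on neighbouring cells, stood at 12.7 ± 0.822 CPM in ICR against 10.6 ± 1.11 in NOD/Ltj (SD, n = 3 each). All 3 NOD/Ltj values of Il15ra lay below those of ICR, but the difference of -0.26 ± 0.17 (log2, SE) did not pass (edgeR adjusted p = 0.602). Il2ra and Il15ra are also neighbours among coding genes.

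Outside the common gamma group, Il10ra, the binding chain for the anti-inflammatory cytokine IL-10, stood at 3.73, 3.52 and 5.84 CPM in ICR and at 13, 26.1 and 25.8 CPM in NOD/Ltj. The groups did not overlap (log2 fold change 2.31 ± 0.34 SE, edgeR adjusted p = 0.0182). Its partner Il10rb, which IL-22 and other cytokines also use, stood at 14.6, 7.40 and 7.03 CPM in ICR and at 13.2, 14.0 and 14.5 CPM in NOD/Ltj. ICR 1 was above every NOD/Ltj library, and the log2 fold change of 0.52 ± 0.30 did not pass (SE, edgeR adjusted p = 0.547). Without ICR 1 it was 0.93 and passed (edgeR adjusted p = 0.0401).

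Il27ra, the private chain of the IL-27 receptor, had 30, 25 and 25 counts in ICR against 133, 1001 and 509 in NOD/Ltj. The rise was 17.7-fold (log2 fold change 4.15 ± 0.60 SE, edgeR adjusted p = 0.0177), with a wide spread within NOD/Ltj. Its exons overlap those of Palm3 on the opposite strand, which held 12 to 59 counts in any library. Il6st, the shared chain with which Il27ra signals, had a mean of 4.31 CPM per kilobase in ICR and 4.46 in NOD/Ltj, the third highest receptor level per length in each strain, and stood at 47.9 ± 8.64 CPM in ICR against 49.5 ± 4.28 in NOD/Ltj (SD, n = 3 each). Its log2 difference was 0.05 ± 0.19 (SE, edgeR adjusted p = 0.956), and its sign turned with single libraries left out. Il6ra, the private chain for IL-6, stood at 4.41, 0.872 and 1.31 CPM in ICR and at 2.13, 4.37 and 4.59 CPM in NOD/Ltj, with overlap through ICR 1 (edgeR adjusted p = 0.715).

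Il18r1, the binding chain of the IL-18 receptor on T and natural killer cells, stood at 2.40, 2.79 and 2.31 CPM in ICR and at 9.78, 14.4 and 9.15 CPM in NOD/Ltj, a log2 fold change of 2.15 ± 0.25 (SE, edgeR adjusted p = 0.0108). The groups did not overlap. Its partner chain Il18rap stood at 0.303, 0.808 and 1.43 CPM in ICR and at 3.70, 7.40 and 4.14 CPM in NOD/Ltj. These did not overlap either, but the log2 fold change of 2.59 ± 0.58 missed the threshold (SE, edgeR adjusted p = 0.0822).

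These chains stand in a row of 6 IL-1 receptor family genes on chromosome 1, in the order Il1r2, Il1r1, Il1rl2, Il1rl1, Il18r1 and Il18rap. Il18r1 was the one called. Il1r1, the signalling receptor of IL-1, stood at 25.5 ± 1.98 CPM in ICR against 23.2 ± 2.08 in NOD/Ltj (SD, n = 3 each, log2 difference -0.14 ± 0.16 SE, edgeR adjusted p = 0.807). Il1rl2, the IL-36 receptor, had 5.11 CPM per kilobase in ICR, where Il1r2 was higher at 7.47 through ICR 1, and 4.25 in NOD/Ltj, where Il2rg, Il10ra and Il6st were higher. It stood at 34.8 ± 8.71 and 29 ± 9.98 CPM (SD, n = 3 each, edgeR adjusted p = 0.809). The ligands of this receptor, Il1f6, Il1f8 and Il1f9, were at 0 in all 6 libraries. Its antagonist Il1f5 had 9, 4 and 8 counts in ICR against 0 in NOD/Ltj, all under the floor of 12 counts. Il1rl1, the IL-33 receptor, stood at 0.481 to 1.60 CPM with overlapping groups (edgeR adjusted p = 0.709), and Il1rap, the partner that IL-1, IL-33 and IL-36 receptors share, at 9.69 to 19.4 CPM (edgeR adjusted p = 0.652).

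**Figure D2:**
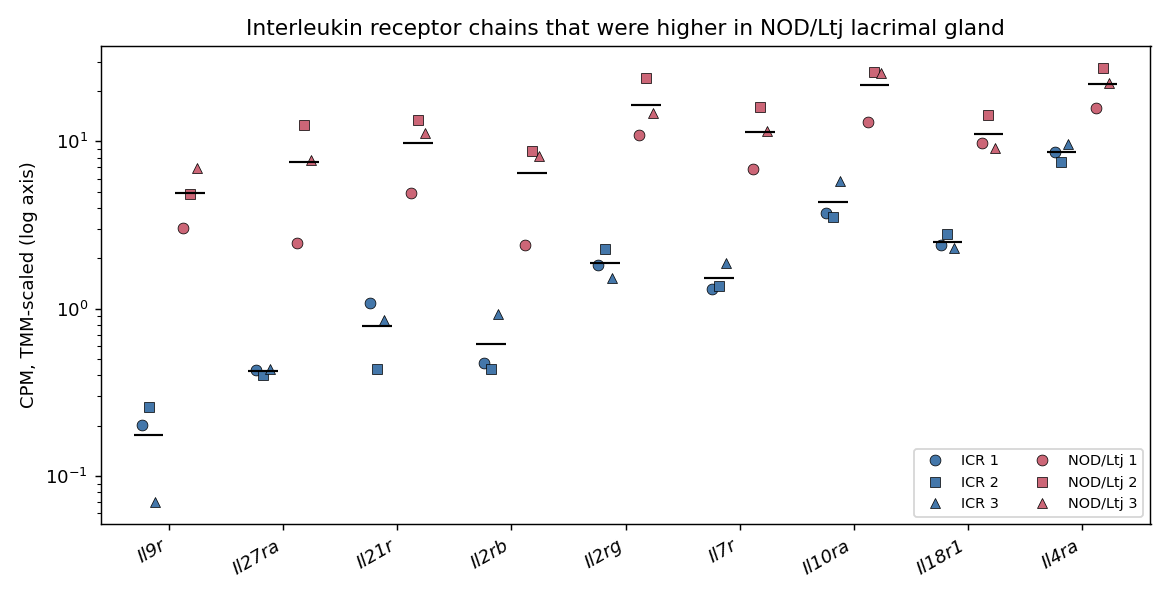
CPM on a log axis of the 9 receptor chains that were higher in NOD/Ltj, 1 point per library (ICR blue, NOD/Ltj red) with the mean of each strain as a bar. No NOD/Ltj point reaches the ICR range of the same gene. Of the 3 NOD/Ltj libraries, NOD/Ltj 1 is the lowest in 8 of the 9 genes and NOD/Ltj 3 in Il18r1.

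Markers of T and B cells were also higher in NOD/Ltj, where 1.88% of all genes tested were higher. Of 7 T cell markers 6 were higher, and their summed level was 2.43 to 3.46 CPM in ICR and 27.4, 73.4 and 60.2 CPM in NOD/Ltj 1, 2 and 3. Of 6 B cell markers 5 were higher, with sums of 2.04 to 5.84 CPM in ICR and 105, 428 and 291 CPM in NOD/Ltj. In both lists NOD/Ltj 1 was the lowest NOD/Ltj library, as it was for 8 of the 9 receptors. The 5 markers of cytotoxic and natural killer cells summed to 0.905 to 1.29 CPM in ICR and 3.48 to 7.93 in NOD/Ltj, with 0 of 5 called. None of these 3 lists held a marker at 0 in a whole strain. The sums of the 6 macrophage markers overlapped (48.1 to 240 CPM in ICR, 114 to 193 in NOD/Ltj, 0 of 6 called). Some lists of other cells had the same order of the NOD/Ltj libraries and some did not. The 5 dendritic cell markers summed to 10.4, 24.7 and 19.2 CPM in NOD/Ltj 1, 2 and 3, against 4.99 to 11.9 in ICR, with 0 of 5 called. The adipocyte sums, at 4.46, 22.6 and 8.89 CPM, had that order too. The macrophage sums, at 123, 193 and 114 CPM, and the endothelial sums, at 66.8, 63.9 and 58.2 CPM, did not. In whole gland RNA, more cells of a type and more RNA per cell cannot be told apart, and the part of lymphocyte numbers in the receptor differences was not tested.

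The calls depended on single libraries. Without NOD/Ltj 1 all 9 receptors were called (2.09% of all genes were higher in that fit). Without ICR 1 there were 8 (2.10% of all genes), with Il10rb gained and Il2rb and Il4ra lost (edgeR adjusted p = 0.0627 and 0.0566). Without ICR 3 there were 5 (0.621%), with Il21r, Il27ra, Il2rb and Il4ra lost (0.0726 to 0.0942). Without ICR 2 Il2rg, Il18r1 and Il9r were called (0.577%), and the other 6 lay between 0.0553 and 0.129. Without NOD/Ltj 2 only Il2rg was called (0.330%), and the others lay between 0.0542 and 0.142. Without NOD/Ltj 3 none of the 9 was called, with edgeR adjusted p from 0.0665 (Il2rg) to 0.179 (Il4ra), and 0.0572% of all genes were higher. Their log2 fold changes moved less, from 3.57 to 4.56 for Il27ra and from 1.90 to 2.27 for Il18r1 over the 6 reduced fits.

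**Figure D3:**
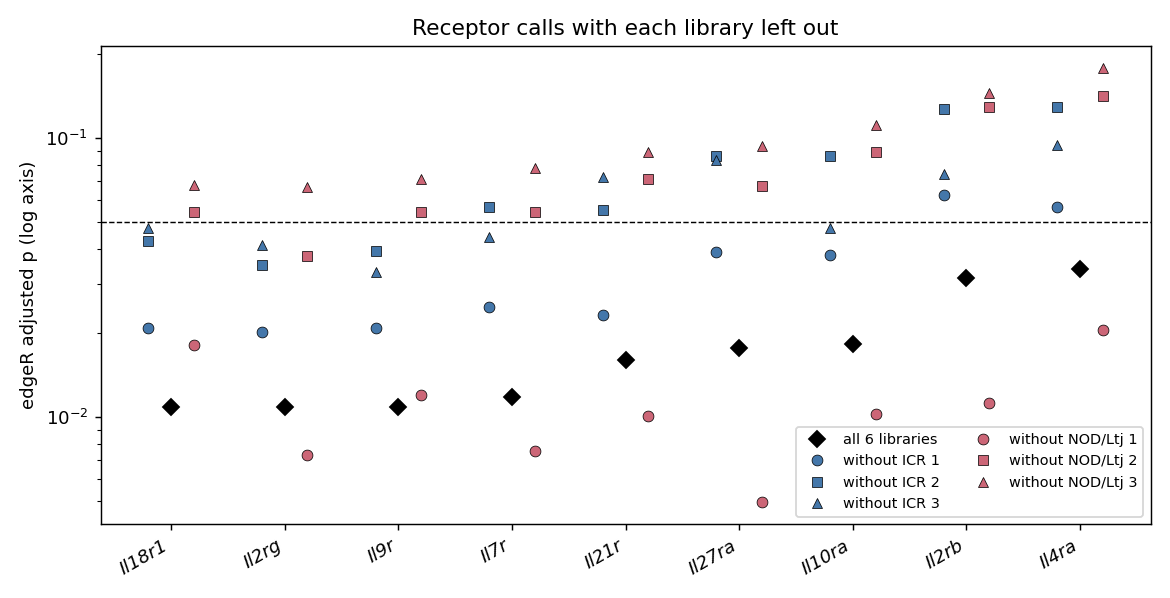
EdgeR adjusted p on a log axis of the 9 receptor chains with all 6 libraries (diamonds) and with each library left out in turn; the dashed line is 0.05. All 9 triangles for the fit without NOD/Ltj 3 lie above the line, from 0.0665 to 0.179, while all 9 circles for the fit without NOD/Ltj 1 lie below it.

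Another 3 receptors had groups that did not overlap and a log2 difference of at least 1 without passing. Il18rap is given above. Il12rb1, the chain that IL-12 and IL-23 share, had 8, 12 and 20 counts in ICR against 43, 188 and 79 in NOD/Ltj (log2 fold change 2.72 ± 0.63 SE, edgeR adjusted p = 0.0908). It needed NOD/Ltj libraries to pass the filter. Its partner Il12rb2 was near the limit of detection, with 0, 0 and 0 counts in ICR against 2, 3 and 0 in NOD/Ltj. The other partner, Il23r, had 8, 0 and 0 counts in ICR against 14, 4 and 70 in NOD/Ltj. Only NOD/Ltj 3 was well above the floor of 12 counts for Il23r. Il5ra, the IL-5 receptor of eosinophils and some B cells, had 0, 0 and 4 counts in ICR against 26, 81 and 63 in NOD/Ltj (edgeR adjusted p = 0.0885). Its fitted difference ranged from 4.50 to 8.76 on the log2 scale with 1 library left out, as ICR was close to 0. Il5ra entered the edgeR test only through its NOD/Ltj counts, so its direction was fixed by the filter. Its values are given as a description and support no difference. DESeq2 called 12 receptors, these 3 beside the 9, and 4.31% of all genes were higher and 1.28% lower by that tool. By limma-voom Il2rg, Il18r1, Il7r and Il10ra were called while 0.664% of all genes were higher and 0.108% lower.

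None of the IL-17 receptors was called. Il17rc and Il17re, which are next to each other among coding genes, stood at 10.7 ± 3.72 and 10.6 ± 1.51 CPM in ICR against 10.9 ± 1.32 and 8.73 ± 2.64 in NOD/Ltj (SD, n = 3 each, edgeR adjusted p = 0.982 and 0.752). Il17ra, the chain common to this family, stood at 8.31, 7.54 and 7.69 CPM in ICR and at 8.11, 19.5 and 13.9 CPM in NOD/Ltj. NOD/Ltj 1 lay within the ICR range (log2 fold change 0.82 ± 0.31 SE, edgeR adjusted p = 0.315). Their ligands were scarce. Il17a had 8 counts in NOD/Ltj 2 and 0 in the other 5 libraries, Il17c had 1 count in NOD/Ltj 3, and Il17b and Il25 stayed at or under 20 counts in every library. Il17d stood at 0.315 to 0.839 CPM (edgeR adjusted p = 0.784). Il17rb and Il17rd stood at 0.370 to 2.34 CPM (edgeR adjusted p = 0.99 and 0.932). Of the remaining receptors, Il3ra and Il20rb stood at 1.11 to 3.70 CPM (edgeR adjusted p = 0.586 and 0.622), and Il1rapl1, Il1rapl2, Il13ra2, Il20ra and Il31ra, at no more than 26 counts in any library, did not pass the filter.

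Il33, Il1r2 and Il18 were set by 1 ICR library. Il33, an alarm cytokine held in the nuclei of epithelial and stromal cells, stood at 33.5 CPM in ICR 1, 2.54 in ICR 2 and 3.57 in ICR 3, and at 2.98, 6.23 and 3.83 CPM in NOD/Ltj. Il1r2, a decoy receptor that captures IL-1 without signalling, stood at 38.2, 2.47 and 2.03 CPM in ICR and at 3.02, 2.03 and 1.70 CPM in NOD/Ltj. Il18, an IL-1 family cytokine stored in epithelium, stood at 5.72, 1.10 and 1.21 CPM in ICR and at 0.889, 1.77 and 0.909 CPM in NOD/Ltj. In these 3 of 50 tested members ICR 1 was at least 3 times the highest of the other 5 libraries, which held for 1.85% of all genes tested. The ratio was 12.7 for Il1r2.

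With all libraries the log2 fold changes were -1.60 ± 0.93 for Il33, -2.67 ± 1.10 for Il1r2 and -1.17 ± 0.70 for Il18 (SE, edgeR adjusted p = 0.549, 0.364 and 0.564). Without ICR 1 they were 0.50, -0.02 and 0.04. Il13ra1, Il11ra1 and Il11ra2 were also highest in ICR 1. Il13ra1 stood at 19.3 CPM there and at 3.48 to 6.59 CPM in the other 5 libraries, and its log2 difference turned from -0.85 to 0.38 without ICR 1. Il11ra1 and Il11ra2 are near-identical copies, between which the counting could split reads. In ICR 1 they stood at 27.8 and 10.2 CPM. The fibroblast and adipocyte sums were also highest in ICR 1, at 2760 and 59.8 CPM. So were the sum of 5 ductal epithelial markers, at 632 CPM against 289 to 348 elsewhere, and that of the 6 macrophage markers, at 240 CPM against 48.1 to 193. The part of these cells in the 6 genes was not tested.

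**Figure D4:**
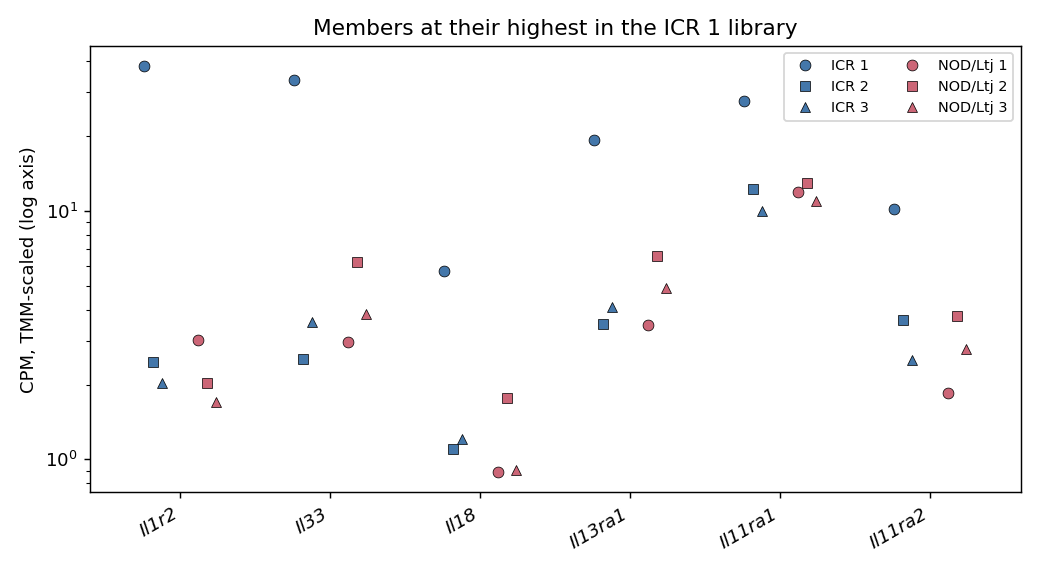
CPM on a log axis of 6 members that were highest in ICR 1, chosen after their values were seen, 1 point per library. ICR 1 reaches 38.2 CPM for Il1r2 and 33.5 CPM for Il33, while the other 5 libraries of both strains lie together between 1.70 and 3.02 CPM for Il1r2 and between 2.54 and 6.23 CPM for Il33.

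Among the cytokines with the most counts, Il16, a chemoattractant for CD4 cells made from a large precursor, had groups that did not overlap. It stood at 4.56, 2.16 and 1.75 CPM in ICR and at 6.13, 18.4 and 12.2 CPM in NOD/Ltj. The log2 fold change of 2.11 ± 0.50 did not pass (SE, edgeR adjusted p = 0.098). Without ICR 1 it was 2.63 and passed (edgeR adjusted p = 0.0438), the only cytokine called in any reduced edgeR fit. Il16 overlaps Stard5 on the opposite strand, which stood at 54.2 CPM in ICR against 56.3 in NOD/Ltj, so a small share of those reads counted to Il16 would alter its level.

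Il34, a ligand of the macrophage growth factor receptor Csf1r, stood at 7.5, 3.51 and 3.37 CPM in ICR and at 0.926, 6.14 and 2.36 CPM in NOD/Ltj (edgeR adjusted p = 0.79). Per length the cytokines with the highest means in NOD/Ltj were Il34, Il16, Il33, Il18 and Il15, at 1.60, 1.56, 1.51, 1.15 and 0.961 CPM per kilobase. In ICR Il33, Il18 and Il34 led at 4.57, 2.59 and 2.45 CPM per kilobase, where the values of Il33 and Il18 rest on ICR 1, and Il16 stood at 0.359. Il15, which sustains natural killer and memory T cells, stood at 1.96, 0.808 and 1.35 CPM in ICR and at 1.87, 2.11 and 2.54 CPM in NOD/Ltj, with overlap through ICR 1 (edgeR adjusted p = 0.567). Il7, the ligand of Il7r, stood at 1.14, 0.452 and 0.664 CPM in ICR and at 0.722, 0.486 and 0.515 CPM in NOD/Ltj (log2 fold change -0.39 ± 0.51 SE, edgeR adjusted p = 0.835). For this ligand and receptor, the receptor rose and no difference was detectable in the ligand at these 28 to 79 counts per library.

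Il12b and Il21 had counts in every NOD/Ltj library and none in ICR. Il21, made by follicular helper T cells to drive B cell maturation, had 0, 0 and 0 counts in ICR against 12, 41 and 40 in NOD/Ltj. Against the floor of 12 counts in each ICR library its mean level was at least 2.32-fold higher in NOD/Ltj (edgeR adjusted p = 0.0518). Il12b, the subunit that IL-12 and IL-23 share, had 0, 0 and 0 counts in ICR against 26, 27 and 18 in NOD/Ltj, at least 1.89-fold higher (edgeR adjusted p = 0.0512). The bounds take the NOD/Ltj counts as exact, and Il21 in NOD/Ltj 1 stood at the floor itself. Both genes entered the test only through their NOD/Ltj counts. These folds and adjusted p, the latter between 0.0648 and 0.258 with 1 library left out, are given as a description and support no difference. Il21 is the neighbour of Il2 on chromosome 3. Il2 itself, the growth factor of T cells, had 11, 0 and 0 counts in ICR against 0, 0 and 11 in NOD/Ltj, so no difference was detectable at this depth.

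Il12a, which joins Il12b in IL-12, had 0, 4 and 0 counts in ICR against 10, 98 and 66 in NOD/Ltj and did not pass the filter of the main test. Il23a, which joins Il12b in IL-23, was at 0.454 to 1.54 CPM with overlapping groups (edgeR adjusted p = 0.954). Il27, the ligand of Il27ra, had 0, 4 and 0 counts in ICR against 7, 17 and 0 in NOD/Ltj. DESeq2 called 4 cytokines higher, Il12a, Il12b, Il16 and Il21, with adjusted p from 0.000288 to 0.00174. No cytokine was called by limma-voom.

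**Figure D5:**
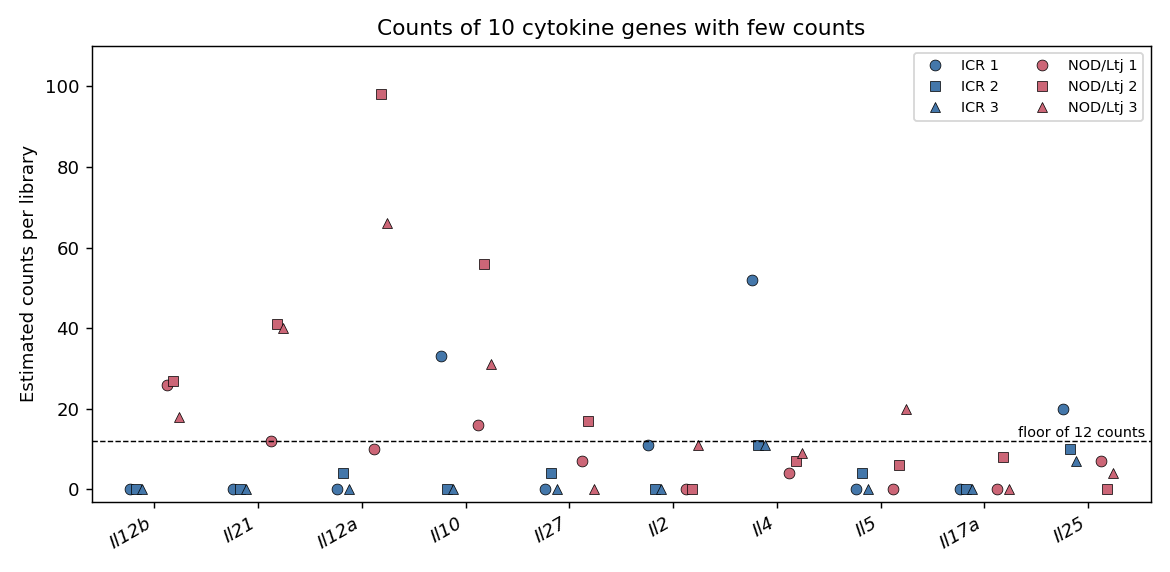
Estimated counts per library of 10 cytokine genes with few counts, chosen after their values were seen, 1 point per library, with the floor of 12 counts as a dashed line. Il12b and Il21 lie at 0 in all ICR libraries and between 12 and 41 in NOD/Ltj, while Il2, Il5 and Il17a stay at or near the floor in both strains.

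The classical inflammatory and helper cytokines showed no call. Il1b stood at 0.881, 0.937 and 0.402 CPM in ICR and at 0.537, 1.47 and 0.742 CPM in NOD/Ltj (edgeR adjusted p = 0.888). Il1bos, its antisense RNA, had 0.826 CPM per kilobase over the 6 libraries against 0.434 for Il1b, and stood at 3.13 ± 0.751 CPM in ICR against 1.80 ± 0.411 in NOD/Ltj (SD, n = 3 each). All NOD/Ltj values of Il1bos were below ICR (log2 fold change -0.80 ± 0.33 SE, edgeR adjusted p = 0.356). Since the strand setting of the counting is not given in the sources used here, reads of Il1b and Il1bos cannot be told apart where their exons overlap. Il6, which links innate signals to B and T cell responses, stood at 0.448, 2.15 and 2.41 CPM in ICR and at 1.15, 0.872 and 2.14 CPM in NOD/Ltj (edgeR adjusted p = 0.925).

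Il10, the ligand of Il10ra, had 33, 0 and 0 counts in ICR against 16, 56 and 31 in NOD/Ltj. The groups overlapped through ICR 1 alone (edgeR adjusted p = 0.746, and 0.0538 without ICR 1). Il10 needed NOD/Ltj libraries to pass the filter, and without ICR 1 it passed only through them. Il4, the cytokine of type 2 responses, had 52, 11 and 11 counts in ICR against 4, 7 and 9 in NOD/Ltj. Of these 6 values only ICR 1 exceeded the floor of 12 counts, and Il4 did not pass the filter. Il5 had 0, 4 and 0 counts in ICR against 0, 6 and 20 in NOD/Ltj. Il1a and Il11 stood at 0.242 to 1.03 CPM with overlapping groups (edgeR adjusted p = 0.889 and 0.874), and Il24 had 2 counts in NOD/Ltj 2 and 0 elsewhere.

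Both secreted antagonists that were tested had positive log2 differences without passing. Il18bp, which neutralises IL-18, stood at 2.57, 1.28 and 2.95 CPM in ICR and at 4.37, 6.40 and 4.36 CPM in NOD/Ltj. The groups did not overlap (log2 fold change 1.15 ± 0.37 SE, edgeR adjusted p = 0.232). Il18bp shares exon sequence with Numa1 on the opposite strand, which stood at 40.2 CPM in ICR against 44.7 in NOD/Ltj. Il1rn, the IL-1 receptor antagonist, stood at 1.21, 0.388 and 0.944 CPM in ICR and at 1.33, 1.92 and 1.30 CPM in NOD/Ltj (edgeR adjusted p = 0.549), with no overlap between the strains. Il4i1 had 4, 7 and 1 counts in ICR against 10, 110 and 18 in NOD/Ltj and did not pass the filter. Its exons overlap those of Nup62 on the same strand (225 to 557 counts per library). They also overlap Atf5 and Tbc1d17 on the opposite strand (542 to 2638 counts), so reads of these genes could have counted to Il4i1.

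The genes that carry interleukin signals without an Il symbol were read from a list of 45 kinases, STAT factors, SOCS inhibitors, shared chains and related cytokines. All 45 were tested, 4 were higher and none was lower, against 1.88% and 0.361% of all genes tested. The median log2 fold change was 0.19, against -0.03 over all genes. Stat4, which transmits IL-12 signals in T cells, stood at 0.0289, 0.355 and 0.0874 CPM in ICR and at 2.50, 8.21 and 5.62 CPM in NOD/Ltj. It rose by 5.11 ± 0.88 (log2, SE, edgeR adjusted p = 0.0323), a call that ended without ICR 3, NOD/Ltj 2 or NOD/Ltj 3 (0.126 to 0.139). Its ICR counts were 2, 22 and 5, of which only ICR 2 exceeded the floor of 12. Stat4 therefore needed NOD/Ltj libraries to pass the filter, and its call is not independent of the filter. Without ICR 2 the log2 fold change was 6.55 (edgeR adjusted p = 0.0372), and in that fit Stat4 passed only through NOD/Ltj.

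Also higher were Clcf1, a cytokine of the IL-6 group (3.43 ± 0.52, log2, SE, edgeR adjusted p = 0.0204), and Ptpn6, a phosphatase of leukocytes that dampens cytokine receptors (1.61 ± 0.30, log2, SE, edgeR adjusted p = 0.0413). Clcf1 kept its call without ICR 1 or NOD/Ltj 1 (0.0826 to 0.113 in the others) and Ptpn6 only without NOD/Ltj 1 (0.0741 to 0.185 in the others). Jak3, the kinase bound to the common gamma chain, stood at 6.08, 3.05 and 3.46 CPM in ICR and at 6.30, 14.9 and 12.1 CPM in NOD/Ltj (log2 fold change 1.40 ± 0.39 SE, edgeR adjusted p = 0.159). The widely expressed Jak1 (0.54 ± 0.22), Stat3 (-0.06 ± 0.30) and Stat6 (0.14 ± 0.18, log2, SE) did not pass either, with edgeR adjusted p of 0.363, 0.969 and 0.839. The feedback inhibitors Socs1 and Socs3 had log2 fold changes of 2.42 ± 0.68 and 1.73 ± 0.48 (SE, edgeR adjusted p = 0.156 and 0.15), and Socs3 passed without ICR 1 (0.0284). Ifng stood at 0.231, 0 and 0 CPM in ICR and at 0.278, 0.710 and 0.591 CPM in NOD/Ltj (edgeR adjusted p = 0.479, and 0.0525 without ICR 1). Socs1 and Ifng also needed NOD/Ltj libraries to pass the filter, and without ICR 1 Ifng passed only through them.

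The title of the series names NF-κB, and 9 receptor genes rose. After these values were seen, the bases upstream of the members' start sites were searched for the STAT element (GAS, letters TTCNNNGAA) and for the NF-κB consensus, on both strands, in the 250 bases before each start in the RefSeq table of GRCm38.p6. The table matched 54 of the 69 members, with 69 start sites, and held 6 of the 9 receptors that rose (8 start sites). Of all 32851 start sites 7.02% held the STAT element and 7.25% the NF-κB consensus. Among the 8 start sites of the receptors that rose, 2 held the STAT element, 1 of Il7r and 1 of Il18r1, and 0 held the NF-κB consensus. The interferon element core (letters GAAANNGAAA) was searched too and stood in 2.98% of all start sites and, among members, in that of Il4. Over all members 7 of 69 start sites held the former and 4 the latter, namely those of Il16, Il2ra, Il1r1 and Il6. The stretches below show the matches in capitals for the receptors that rose and for 3 members with the NF-κB consensus that did not pass, and are printed 5′ to 3′ on the strand of the gene.
Il7r, 142 bases upstream, chr15:9529999-9530028, minus strand: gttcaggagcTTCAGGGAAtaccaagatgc
Il18r1, 219 bases upstream, chr1:40465777-40465806, plus strand: tcggggttagTTCTGGGAActgtggagctc
Il18r1, 152 bases upstream, chr1:40465844-40465873, plus strand: agtacaggtcTTCCCAGAActgaaagcttg
Il6, 44 bases upstream, chr5:30013060-30013089, plus strand: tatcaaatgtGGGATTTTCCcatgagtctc
Il16, 49 bases upstream, chr7:83655525-83655554, minus strand: catgactgctGGGAATTTCCCgctaaaggt
Il2ra, 201 bases upstream, chr2:11642581-11642610, plus strand: tgccgcggcaGGGAATCCCCCtttccttgt
In Il16 and Il2ra the capitals hold 2 overlapping matches. The build of the deposited counts is not given in the sources used here, so these positions belong to the reference alone, and a match is a run of letters that shows no binding. Il18r1 has 3 start sites in the table, of which 1 held both of its matches. Il16 likewise has other start sites in the table, and these held no match. The 250 bases before the Il7r start overlap exon sequence of Il7r itself in the GENCODE annotation.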

How the data were processed

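The authors deposited 1 table of estimated counts per gene for 6 libraries, whole numbers that were not scaled between libraries, so nothing was rounded. Per the submitters' processing notes, fastp, StringTie and edgeR were used, without roles or versions. The aligner, build and strand setting were not given in the sources used here. Of the values from 1 to 40, between 30.4 and 31.7% were multiples of 4, where 25% would be without steps, and about 4 counts were taken as 1 fragment. Symbols, biotypes and exon lengths came from GENCODE mouse release 21 (55141 of 55401 identifiers had a symbol).

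All genes were fitted with edgeR 4.0.16 (R 4.3.3), quasi-likelihood test, TMM scaling, filterByExpr, two-sided, no block, with Benjamini-Hochberg adjustment over 18537 genes. Standard errors were obtained from the fitted log2 difference and the square root of its F statistic. The procedure was tested on simulated data, with changes set only in genes of higher counts and the same spread for all genes. That test does not cover genes with few counts or single outlying libraries. DESeq2 1.42.0, limma-voom (limma 3.58.1), other scalings and filters, counts divided by 4, a replicate block and fits without each library were the alternatives. The members, gene lists and roles were chosen with earlier results of these data known. Values in every library were given for members that were called, for those with groups apart and a log2 difference of 1 or more in size, for the 5 cytokines and 5 receptors highest per length over the 6 libraries, and for a fixed set of classical cytokines and their receptor chains. Some members were given by range. Il10ra, Il27ra and Il2rb were the risen receptors with no start site matched. A result for 1 gene of the list of 45 signalling genes is not reported here.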

Additional observations from a re-analysis of the deposited data

How the results depend on the processing

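With RLE or upper-quartile factors, no filter, a filter of at least 1 CPM in 3 libraries, or counts divided by 4, the 9 receptor calls, the 0 cytokine calls and the absence of lower members stayed, and the last 2 settings left Il12b and Il21 out by their filter on low counts. DESeq2 called 4 cytokines, 9 partner genes, 940 higher and 279 lower genes in all, against 0, 4, 349 and 67 with edgeR, and limma-voom 4 receptors, 1 partner gene, 123 higher and 20 lower genes. Same-numbered libraries did not deviate together (correlations of -0.12, -0.15 and 0.07). The labels do not say whether the numbers pair the samples, and so few values cannot exclude it. With the replicate block 4 receptors (Il2rg, Il18r1, Il7r and Il10ra), 2 partner genes, 129 higher and 25 lower genes were called. With 1 library left out the counts ranged from 0 to 9 receptors, 0 to 1 cytokines, 0 to 4 partner genes, 11 to 406 higher and 2 to 118 lower genes.

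Of members that were not called, the sign turned for Il17rb (-0.02) and Il17rc (-0.01) with upper-quartile factors. Stat3, a signalling gene outside the members that was not called either, turned to 0.01 with limma-voom and to 0.01 with the replicate block. With 1 library left out the log2 fold change ranged from -2.09 to 0.50 for Il33, from -1.57 to 0.04 for Il18, from -1.23 to 0.38 for Il13ra1, from -0.75 to 0.09 for Il11ra1, from -0.67 to 0.18 for Il1a, from -0.22 to 0.58 for Il1b, from -0.96 to 0.14 for Il23a, from -0.74 to 0.09 for Il6, from -0.65 to 0.02 for Il7, from -0.34 to 0.43 for Il17rb, from -0.25 to 0.19 for Il17rc, from -0.58 to 0.39 for Il17rd, from -0.03 to 0.19 for Il6st and from -0.27 to 0.32 for Stat3. The cause of each turn was not tested. DESeq2 gave no adjusted p for Il33 and Il1r2. Counts under about 12 limit what can be seen of Il2, Il4, Il5, Il17a and Il27.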
